A study of Caenorhabditis elegans with 2 samples.

Results

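Genes that make, remove or follow the removal of the mRNA cap were examined in a ChIP-seq experiment on Caenorhabditis elegans. They were cmtr-1, cel-1, dcap-1, dcap-2, dcs-1, xrn-1 and xrn-2, 7 of 19973 protein-coding genes on the nuclear chromosomes. The group was chosen by the peak signal of these same samples, led by the strongest listed peak, at cmtr-1, so the counts and signal values of its members are a description and carry no test. Every peak summit from 1000 bp upstream to 200 bp downstream of a gene's outermost 5' end (its 5' end window), or inside the gene, was collected from all deposited lists.

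The animals were whole L4 larvae at 47.5 hours, grown from starved L1 larvae that had been hatched after bleaching. Strain RW12291 carries the allele st12291 on chromosome III, in which Y48G9A.11 was fused by CRISPR to TY1, EGFP and 3xFLAG. Chromatin was recovered with anti-GFP. There was 1 group of 2 biological replicates, both of this strain, and no sample without the tag was analysed here. Recovery that depends on the tagged protein and recovery that any such precipitation gives at active chromatin therefore cannot be told apart at any of these genes. The whole animal was used, so the cells that gave a peak are not known, and the sequencing depth is unknown.

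The cap is a methylated guanosine joined to the first nucleotide of RNA polymerase II transcripts. The capping enzyme, CEL-1, adds the guanosine while the transcript is being made, and the mammalian counterpart of CMTR-1 methylates the ribose of the first transcribed nucleotide. DCAP-2 is the enzyme that cleaves the cap from cytoplasmic mRNA, and DCAP-1 is its activating partner. XRN-1 degrades the uncapped RNA from its 5' end in the cytoplasm, while XRN-2 does so mainly in the nucleus. DCS-1 is the scavenger enzyme that hydrolyses the short capped remnant left when RNA is degraded from its 3' end.

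Of the 7 genes, 3 had a summit in their 5' end window in the pooled thresholded list of the authors, which is called the main list below and holds 2228 peaks from both replicates. They were cmtr-1, dcap-1 and xrn-2. The same criterion was met by 6.13% of all protein-coding genes, and nothing is read from the difference, since this list chose the group. A summit inside the gene added dcs-1, so that 4 of 7 genes had a main peak in the window or the body, against 9.29% of protein-coding genes. No main peak lay at cel-1, dcap-2 or xrn-1. The decapping activator dcap-1 had a listed peak and the decapping enzyme dcap-2 did not, and of the exonucleases xrn-2 had one and xrn-1 did not.

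The sequences under these 4 peaks are shown so that their positions, neighbours and shared letters can be followed. For the peaks upstream of genes, the run is the whole gap between the member and the nearest annotated gene upstream, and for dcs-1 it is 100 bases on each side of the summit. All are from genome build WBcel235 (RefSeq), 5' to 3' on the strand of the gene. Capitals mark matches on either strand to the 6-base word cgcagc, to the word cgcgcc or to the word agacga, each of which occurs near 3 of the 4 summits.
cmtr-1, chrII:15025894-15026113, plus strand, summit at base 73 of 220: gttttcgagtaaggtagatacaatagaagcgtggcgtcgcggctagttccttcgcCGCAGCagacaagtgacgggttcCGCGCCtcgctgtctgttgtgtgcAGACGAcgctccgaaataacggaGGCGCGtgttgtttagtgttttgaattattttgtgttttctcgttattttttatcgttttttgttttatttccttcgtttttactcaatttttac
dcap-1, chrIV:1054795-1055022, minus strand, summit at base 85 of 228: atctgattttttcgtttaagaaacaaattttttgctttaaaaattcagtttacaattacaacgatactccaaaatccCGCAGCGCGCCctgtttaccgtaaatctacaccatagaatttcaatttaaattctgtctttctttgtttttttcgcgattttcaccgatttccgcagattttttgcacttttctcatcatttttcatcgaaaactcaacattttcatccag
xrn-2, chrII:14155570-14155767, plus strand, summit at base 159 of 198: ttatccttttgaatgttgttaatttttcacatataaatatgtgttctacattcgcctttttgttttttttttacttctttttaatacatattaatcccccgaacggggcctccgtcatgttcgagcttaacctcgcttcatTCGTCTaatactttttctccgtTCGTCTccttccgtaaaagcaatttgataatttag
dcs-1, chrV:20088493-20088693, minus strand, summit at base 101 of 201: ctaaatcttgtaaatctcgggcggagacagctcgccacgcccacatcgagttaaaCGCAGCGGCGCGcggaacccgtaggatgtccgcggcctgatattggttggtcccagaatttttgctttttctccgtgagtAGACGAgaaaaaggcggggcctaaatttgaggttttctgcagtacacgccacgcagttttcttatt

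At cmtr-1 (WBGene00013160, chromosome II, 15026114 to 15037854, plus strand), the signal value of the peak was 3680.4 in the main list, 1884.9 in the list of replicate 1 and 1809.4 in that of replicate 2. The signal value is the authors' own figure for the strength of a peak, in a unit the sources used here do not name, and at the 4 listed peaks the replicates' values added up to about the pooled one. The peak held rank 1 in each of these lists and in the conservative list, where its signal was also 3680.4. In the ranked lists of candidates it was at rank 2, below a candidate on chromosome X that no thresholded list holds, with a signal of 3695.6 pooled, 1910.5 in replicate 1 and 1979.3 in replicate 2. Its summits lay at -148, -145 and -151 bp from the 5' end in the pooled list, replicate 1 and replicate 2, a spread of 6 bp between the replicates. The annotation gives cmtr-1 a second 5' end, used by 3 of its 4 transcripts, from which the pooled summit was 230 bp upstream. The peak spanned 406 bp, and 3 of 2228 main peaks were wider. It covered the whole of the snoRNA gene Y53F4B.47 (80 bp, minus strand), whose 5' end was 73 bp from the summit, and reached the end of the protein-coding gene Y53F4B.12. The summit was thus nearer to the snoRNA gene than to cmtr-1, and the peak cannot be assigned to either of these divergent genes alone.

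At dcap-1 (WBGene00021929, chromosome IV, 1052524 to 1054794, minus strand), the pooled signal was 1188.2, that of replicate 1 was 612.7 and that of replicate 2 was 561.5. The peak ranked 16 of 2228 by pooled signal, 13 of 1358 for replicate 1 and 18 of 1200 for replicate 2. The summit lay at -144 bp in the pooled list, -161 bp in replicate 1 and -130 bp in replicate 2. No other gene had its 5' end window over this summit. The peak, 371 bp wide, filled the gap of 228 bp to the gene upstream, Y55F3AM.13, which is transcribed in the same direction and had a main peak of its own with a signal of 337.6 at -358 bp.

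At xrn-2 (WBGene00006964, chromosome II, 14155768 to 14166030, plus strand), the pooled signal was 230.2, with 128.5 for replicate 1 and 106.8 for replicate 2. The ranks were 392, 318 and 472 in these lists, so the peak stood well below those of cmtr-1 and dcap-1 in both replicates. Among the listed peaks of the group, its summit was the nearest to an outermost 5' end, at -40 bp in the pooled list, -15 bp in replicate 1 and -39 bp in replicate 2. The 198 bp upstream separate xrn-2 from rpl-43, a ribosomal protein gene on the same strand. That gene had a separate main peak (signal 145.2, at -767 bp), and no window but that of xrn-2 held the xrn-2 summit. The xrn-2 peak, 324 bp wide, filled the gap and reached the end of rpl-43.

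**Figure D1:**
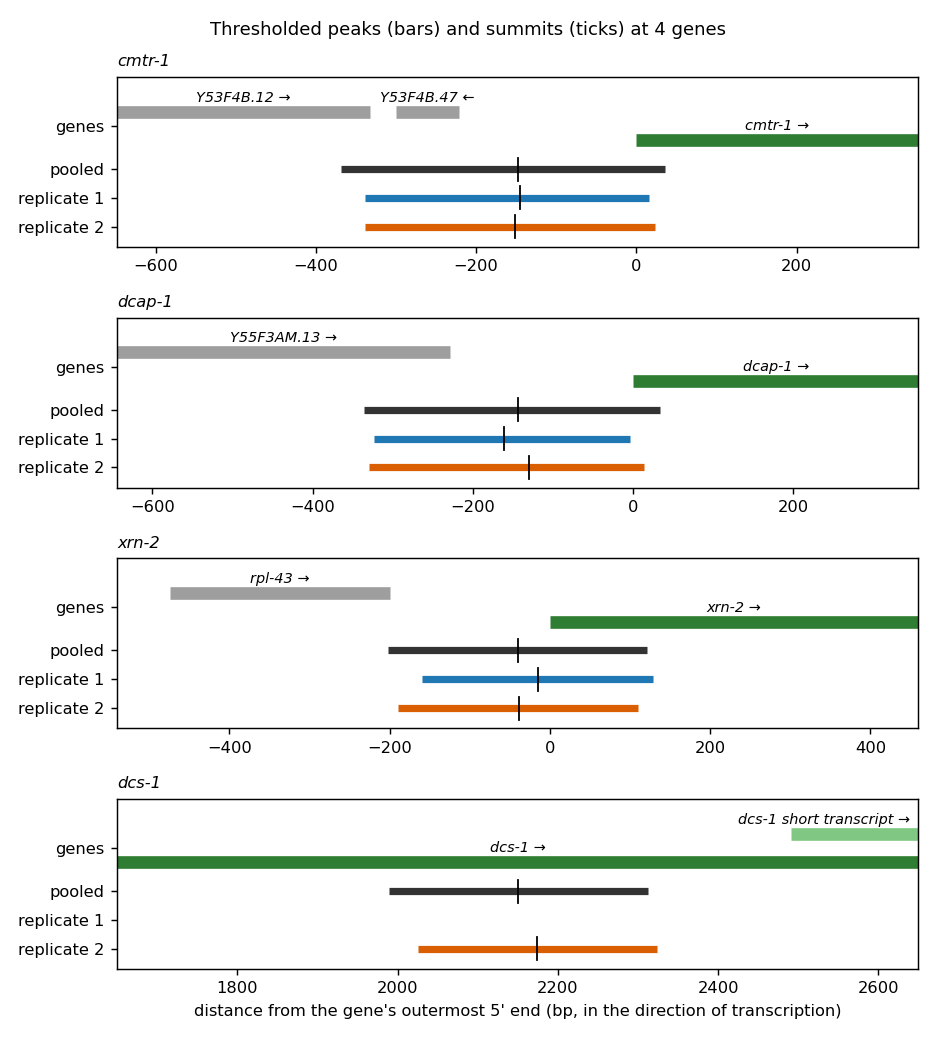
Peaks of the thresholded lists at cmtr-1, dcap-1, xrn-2 and dcs-1, plotted by distance in bp from the outermost 5' end of the gene in its direction of transcription. Bars are peaks, black ticks are summits and arrows give the direction of each gene relative to the named one. The summits of both replicates lie upstream of cmtr-1, dcap-1 and xrn-2, and at dcs-1 only the pooled list and replicate 2 have a bar.

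The listed peak of dcs-1 (WBGene00000940, chromosome V, 20087848 to 20090743, minus strand) was inside the gene. Its summit was at position 20088593, 2150 bp downstream of the outermost 5' end, in intron 4 of the 5 introns of the long transcript. The annotated short transcript of dcs-1 starts at 20088252, and the summit lay 341 bp upstream of that start. The signal was 159.4 in the main list, at rank 766, and 78.2 in replicate 2, at rank 863 of 1200. The latter was below the median signal of that replicate's thresholded list, 96.1. Replicate 1 had a candidate peak there with a signal of 72.8, close to that of replicate 2, and it was not in that replicate's thresholded list. The summit also fell in the 5' end window of fre-1, the next gene downstream, at -858 bp. At the 5' end of dcs-1 itself, 519 bp from the divergent gene sec-23, there was no listed peak, and the strongest candidate had a signal of 70.0 at -99 bp.

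Each candidate has a score of at most 1000 that follows the irreproducible discovery rate (IDR), and 830 was the lowest score in each thresholded list. The score alone did not set membership, since 75 of the 2303 pooled candidates that reached 830 were not in the main list, and 65, 57 and 47 were missing in the same way from the conservative list and those of replicates 1 and 2. None of the candidates left out was at a member. Among the listed peaks of the genes, the lowest score was 987, at dcs-1 in replicate 2, and the others had 1000. Below the limit of 830 were the dcs-1 candidate in replicate 1 with 654 and the strongest dcap-2 candidate. The latter had 631 in the pooled ranked list that goes with the main list. The score of that dcap-2 candidate was only 328 in the other pooled ranked list, which goes with the conservative list. It was 423 in replicate 2, and the candidate at 1280 bp in replicate 1 scored 171.

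The 3 genes without a listed peak had candidates in the ranked lists. The pooled ranked list that goes with the main list is used here, and it holds 93610 candidates with a median signal of 31.6. The strongest candidate of dcap-2 was in the upper 3.1% of these by signal, that of xrn-1 in the upper 9.37% and that of cel-1 in the upper 18.5%. Each is the strongest of all candidates at its gene, 8 at dcap-2, 36 at xrn-1 and 5 at cel-1. The best of several ranks high more easily than a single candidate, so these places do not show raised signal. The median signal of the candidates was 38.2 at dcap-2, 25.5 at xrn-1 and 38.4 at cel-1. At dcap-2 (WBGene00003582, chromosome IV, 13513369 to 13521870, minus strand), the strongest candidate had a signal of 89.8 in the pooled list. The summit lay in a coding exon at 1363 bp, and at -18 bp from the start of a shorter annotated transcript. In replicate 2 the candidate there had a signal of 56.1, and in replicate 1 the candidate at 1280 bp, whose interval covers the pooled summit, had 26.8. The strongest candidate of the gene in replicate 1 had a similar signal, 28.3, at 7259 bp. There was no candidate at all in the 5' end window of dcap-2, though a pooled candidate with a signal of 36.6 lay past its downstream edge, at 270 bp. The gap to rsd-2, the gene upstream on the same strand, is 99 bp. Among all protein-coding genes, 61.5% had a window candidate in the pooled ranked list, as did the other 6 members.

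At cel-1 (WBGene00000466), the strongest candidate had a signal of 53.5 in the pooled list, 34.2 in replicate 1 and 25.8 in replicate 2, between 301 and 350 bp downstream of the 5' end. In its window, the single candidate, at -87 bp, had a pooled signal of 30.2, next to the divergent gene npp-14, which had no main peak either. The longest member, xrn-1 (WBGene00012730, chromosome II, 14068907 to 14089877), had 36 candidates along 20971 bp, and 33 in the other pooled ranked list. The strongest had a signal of 66.1 in the pooled list, at 18036 bp, 39.6 in replicate 2 at 18060 bp and 22.4 in replicate 1 at 18009 bp. In replicate 1 a candidate at 16448 bp was slightly stronger, with 26.6. The stronger of its window candidates had a pooled signal of 24.6, at -80 bp. These window candidates of cel-1 and xrn-1 were below the median of all pooled candidates.

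**Figure D2:**
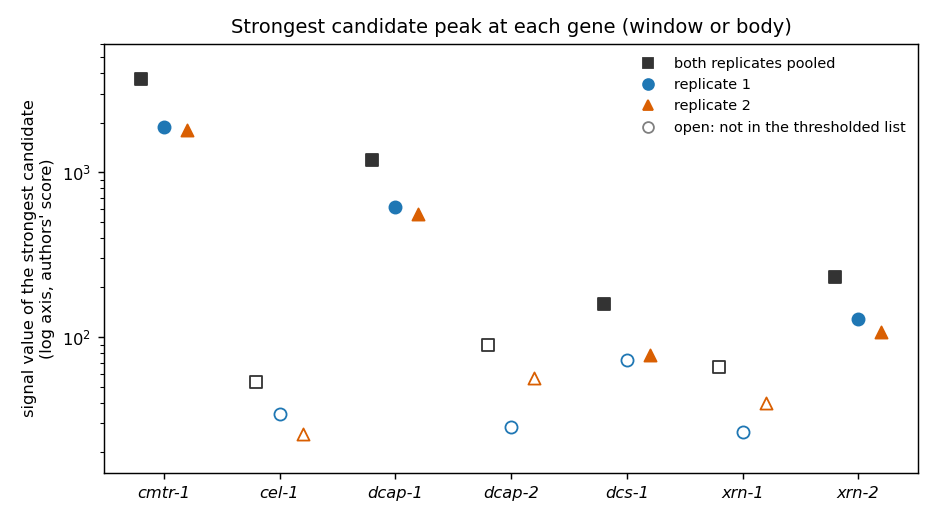
Signal value (log axis) of the strongest candidate in the window or body of each gene, in the pooled ranked list and in that of each replicate. Filled symbols are in the matching thresholded list and open symbols are not. At cmtr-1, dcap-1 and xrn-2 all symbols are filled, and at cel-1, dcap-2 and xrn-1 none is.

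The genes with a listed peak also carried many weak candidates, none of which was listed. Apart from the peak upstream of it, cmtr-1 had 16 candidates, with pooled signals from 4.3 to 67.9 and a median of 32.8. In xrn-2 there were 19 others, with signals from 10.8 to 49.7, and in dcap-1 there were 3, from 16.0 to 58.9. The 5 others at dcs-1 ran from 20.8 to 70.0. The candidates of cel-1 (2.9 to 53.5) and xrn-1 (2.7 to 66.1) covered similar values. Those of dcap-2 (24.7 to 89.8) reached higher than any unlisted candidate of the other members. All were below the listed peak of dcs-1.

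**Figure D3:**
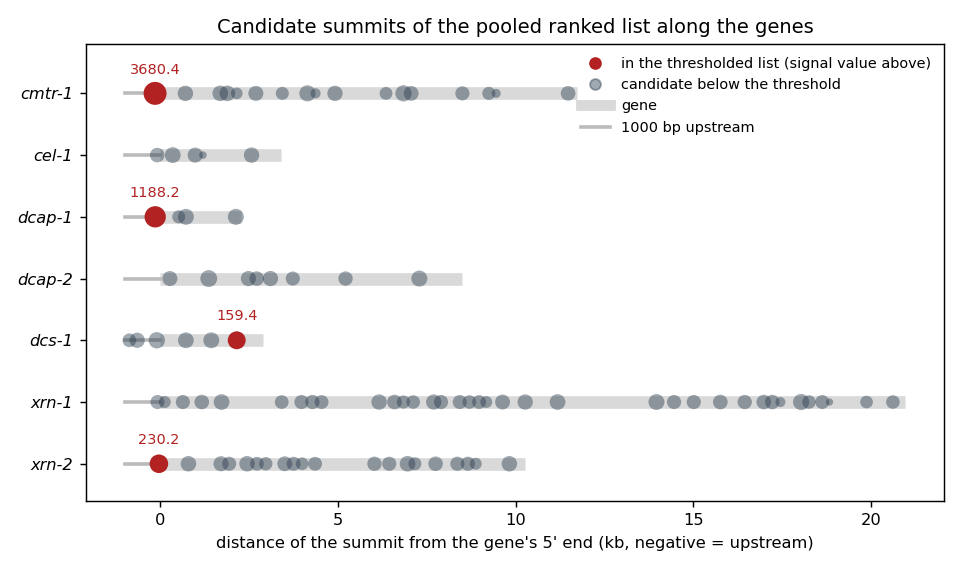
Summits of all candidates of the pooled ranked list along the 7 genes, by distance in kb from the 5' end. The size of a point follows the logarithm of its signal, red points are in the thresholded list with their signal printed above, and grey bars are the genes. The red points of cmtr-1, dcap-1 and xrn-2 are at the 5' end and that of dcs-1 is inside the gene.

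Among the 1225 protein-coding genes with a main summit in the window, the median signal of the strongest such peak was 158.2. The value of cmtr-1 was 23.3 times this median and the highest of all. For dcap-1 it was 7.51 times the median, with 22 genes higher. For xrn-2 it was 1.45 times, with 384 genes higher. In signal order, the peak next below that of cmtr-1 had 2907.2 and lay in the windows of wago-4 and F58G1.2, a difference of 773.2. The neighbours of dcap-1 in this order were the peak of F15D3.6 and timm-23 above it (a difference of 23.2) and that of pph-5 and Y39B6A.3 below it (54.4). Next above xrn-2 was the peak of plin-1 and W01A8.2 (0.7), and next below it a peak at tRNA genes (1.5). Likeness here is the difference in pooled signal, over a single condition.

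**Figure D4:**
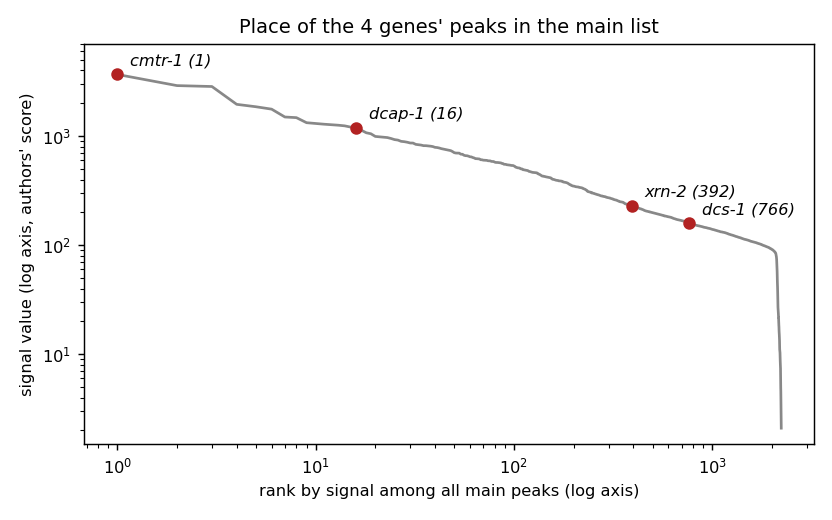
Signal value against rank for all 2228 main peaks, both on log axes, with the peaks of cmtr-1, dcap-1, xrn-2 and dcs-1 in red and their ranks in brackets. The group runs from rank 1 to rank 766.

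The signal in replicate 1 divided by that in replicate 2 was 1.04 at cmtr-1, 1.09 at dcap-1, 1.2 at xrn-2 and 0.930 at dcs-1. Over the 2098 main peaks with a candidate summit of each replicate inside, the median ratio was 0.953, and 90% of the peaks lay between 0.535 and 1.68, so all 4 ratios were inside the usual spread. The summits of the replicates were 6 bp apart at cmtr-1, 31 bp at dcap-1, 24 bp at xrn-2 and 43 bp at dcs-1, beside a median of 22 bp over the same 2098 peaks. In the single-replicate lists the same 3 genes had a window summit, against 4.3% of protein-coding genes in replicate 1 and 4.03% in replicate 2, and in the conservative list against 6.01%.

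Upstream summits of the group were close to the gene. Over the 1225 genes with a main window summit, the median position was -247 bp, with a middle range from -466 to -122 bp, and 31.6% of them lay within 200 bp upstream. Counted from the outermost 5' ends, the summits at cmtr-1 (-148 bp), dcap-1 (-144 bp) and xrn-2 (-40 bp) were all in that stretch. From the second 5' end of cmtr-1, used by most of its transcripts, the summit was 230 bp upstream and outside it. The peaks of xrn-2 and dcs-1 were both 324 bp wide, the width of 84% of main peaks, while those of cmtr-1 and dcap-1 were wider than all but a few.

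The printed sequences differ in base composition. In 201 bp around the summit, G and C made up 48.8% at cmtr-1, 31.3% at dcap-1, 37.3% at xrn-2 and 51.7% at dcs-1, beside a median of 42.3% over all main peaks and of 32.8% in the 201 bp before protein-coding 5' ends. At dcap-1 the summit is in a short stretch richer in G and C, with 51% in the central 51 bp. The same window held 62.7% at cmtr-1, 43.1% at xrn-2 and 47.1% at dcs-1. The median of main peaks for 51 bp was 49%.

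Runs of at least 6 T were found in the gaps upstream of genes, but not close to the summits. Within 50 bp of the summit, TTTTTT was at none of the 4 peaks on either strand, and at 26.8% of main peaks. In the gaps there were 4 such runs at dcap-1, 2 at cmtr-1 and 1 at xrn-2, which was 10 bases long. The nearest was 52 bp from the summit at dcap-1, 87 bp at xrn-2 and 99 bp at cmtr-1, and the dcs-1 stretch had none. In 201 bp around the summit, TTTTTT was found on either strand at dcap-1 and xrn-2, at 55.9% of main peaks and in 70.6% of promoters of the same length. CCGCCC was found at dcs-1, at 8.75% of main peaks and in 6.01% of promoters. The word TATAAA was in none of the 4 windows of 201 bp, and at 12% of main peaks and in 30.5% of promoters, but it occurs further from the summit in the printed xrn-2 gap, inside the peak. None of the 4 windows held GAGAGA, present at 16.7% of main peaks and in 16.4% of promoters, or TTTCAG, at 24% and in 36.9%. Nor was TGCGTCTC in any of the 4 windows, while 3.64% of main peaks and 2.59% of promoters held it. No word searched contains another, though matches of different words may overlap.

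No 6-base word was present within 50 bp of all 4 summits, and 3 words were present at 3 of them, counting both strands. The word cgcagc was at cmtr-1, dcap-1 and dcs-1, and at 5.43% of all main peaks. At the same 3 genes was cgcgcc, which 9.92% of main peaks held. The third word, agacga, was at cmtr-1, xrn-2 and dcs-1, and at 3.64% of main peaks. In dcap-1 the first pair overlaps as a single stretch that covers the summit, and in dcs-1 they adjoin. These words were picked out after the sequences had been seen, and a match is a string of letters, not a shown site.

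Other genes that handle caps or degrade mRNA were taken from 5 lists of 66 annotated genes. Of these, 13 (19.7%) had a main summit in the window, and without the members 10 of 59 (16.9%), beside 6.13% of all protein-coding genes. Their median signal was 230.2, and 184.3 without the members, beside 158.2 over all genes with such a peak. Both replicates' own lists held a window summit for 10 of the 13, and for 7 of the 10 without the members. The lists were chosen with earlier results of these data known, so nothing is read from the difference in shares. No test of the lists was made.

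In the list of capping and cap binding, 3 of 12 genes had a main window peak. Beside cmtr-1 these were ncbp-1, a subunit of the nuclear cap-binding complex (191.7 at -105 bp, shared with rbx-2), and ife-5, one of the translation factors eIF4E that bind the cap (117.5 at -126 bp). In that of decapping and decay from the 5' end the count was 4 of 18. Beside dcap-1 and xrn-2 they were lsm-5 (392.9 at -462 bp) and lsm-4 (176.8 at -103 bp, not listed in replicate 1), which encode Sm-like proteins of rings that bind RNA. The genes of the other subunit of the nuclear cap-binding complex, ncbp-2, and of the decapping factors patr-1, edc-3 and edc-4 had none.

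Deadenylation genes, whose products shorten the poly(A) tail before the cap is removed, had peaks at 4 of 12. The strongest was at let-711, the scaffold of the CCR4-NOT complex (577.7 at -126 bp, shared with abu-13). The others were panl-2, a subunit of the PAN deadenylase (249.9 at -252 bp, shared with cel-mir-2213 and F31E3.9), ntl-11 (171.7 at -157 bp) and ntl-3 (99.8 at -521 bp, in neither replicate's own list), both CCR4-NOT subunits. The deadenylase gene ccr-4 had a main peak in its body alone (98.1, in the window of wdr-46). Of 15 genes of the exosome and its cofactors, which degrade RNA from the 3' end, 2 had one. These were exos-2 (889.5 at -128 bp, shared with the piRNA gene 21ur-5528) and the ribonuclease gene dis-3 (110.6 at -53 bp, in neither replicate's own list). Nonsense-mediated decay had 0 of 9, and none of smg-1 to smg-9 had a main peak in the body either.

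**Figure D5:**
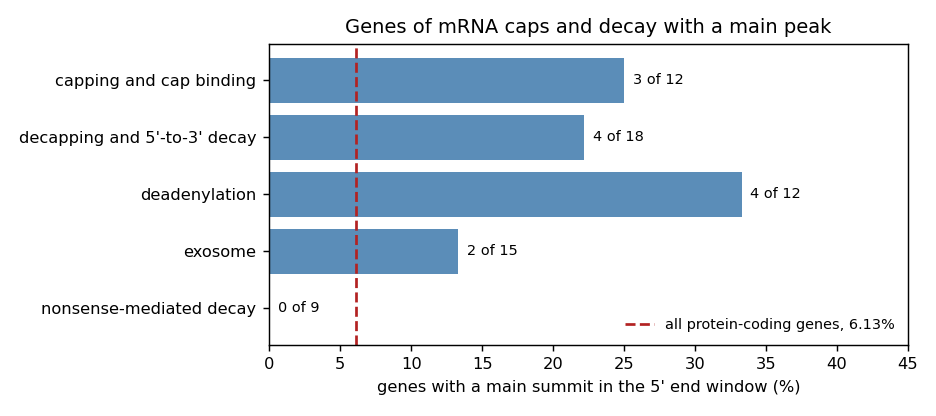
Share of genes with a main summit in the 5' end window for 5 lists of genes of mRNA caps and decay (bars starting at 0, counts beside them), with the share of all protein-coding genes as a dashed line at 6.13%. The bars run from 0 of 9 to 4 of 12.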

How the data were processed

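ChIP-seq of 2 biological replicates was read as peak lists; replicate numbers came from the labels. Per the labels, chromatin was sheared by sonication to 200 to 800 bp. The authors deposited, on build ce11, a ranked and a thresholded list for each replicate and for both together. They also deposited a conservative pooled list and another pooled ranked list, of 93476 candidates, that goes with it. Pooled candidates at the members are from the ranked list of 93610 that goes with the main list, unless stated. The other differs in part, with 33 candidates in place of 36 at xrn-1 and 9 in place of 8 at dcap-2. The deposited signal value is used without a unit, which no source names; the deposited score follows the IDR; the ranked lists deposited by the authors also give its −log10. The aligner and the peak caller were not given in the sources used here. Thresholded lists held 2228 (main), 2171 (conservative), 1358 (replicate 1) and 1200 (replicate 2) peaks, all found in the ranked lists.

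Genes came from Ensembl release 115 (WBcel235, the assembly of ce11: no peak passed a chromosome end), sequences from RefSeq. Python 3.11.15, numpy 2.4.6, pandas 2.3.3 and matplotlib 3.10.9 were used. The gene assignment was tested on simulated data. The members and all lists were chosen with earlier results of these data known. Named were all members, every gene whose window held the summit of a member's peak, the peaks next in signal order, and up to 4 genes of each list with the strongest main peak. The genes lying next to members and the listed genes without a peak were named beyond this rule, after their values were seen. Depth is unknown, so no interval is given. Names without a match in the annotation, 6 of 72, were left out. Alternatives were other lists, windows, ways of assigning a peak to a gene, the stronger 50% of peaks, RefSeq 5' ends and other sequence widths. The shared 6-base words and the 51 bp windows were added after seeing the data.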

Additional observations from a re-analysis of the deposited data

How the results depend on the processing

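The count of 3 genes with a window summit was the same in the conservative list, in either replicate's list, in the stronger 50% of peaks, with a shorter and a longer upstream window, with overlap of the peak in place of the summit, with RefSeq 5' ends and with the nearest protein-coding 5' end. With the nearest 5' end of any gene it was 2, because the cmtr-1 peak went to Y53F4B.47. The count with gene bodies was 4 in the main list and 3 in the list of replicate 1, where the dcs-1 peak was not listed. It was not computed for nearest 5' ends, which have no body. Of the share of all protein-coding genes with a window summit, 6.13% in the main list, the value was 4.03% to 4.3% in single replicates, 3.97% in the stronger 50% of peaks, which has fewer peaks, and 3.77% with the nearest 5' end of any gene, which gives each peak to fewer genes. The listed genes of caps and decay with a window summit numbered 13, and between 10 and 17 under the alternatives. The xrn-2 summit, at -40 bp, was at -15 bp in replicate 1 and at -39 bp in replicate 2. Matches of the 6 words searched at the 4 peaks numbered 3 with 100 bp on each side, 0 with 50 bp and 5 with 150 bp, since a longer stretch holds more words. The RefSeq annotation gave the same 5' ends for all 7 genes.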
